A study of Rattus norvegicus with 8 samples.

Results

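The 8 glucocorticoid-responsive genes described here were followed in the neural lobe of the rat pituitary (the neurohypophysis), namely Fkbp5, Tsc22d3, Sgk1, Zbtb16, Pdk4, Mt1, Hsd11b1 and Srd5a1. They were chosen by gene symbol, and 8 of 8 were found among the 33294 genes listed. The libraries came from male Sprague Dawley rats of 35 days (4 libraries) and 125 days (4 libraries). No treatment other than age is labelled, and the 35-day animals are named as the control group. All animals were anaesthetized with isoflurane and perfused with phosphate-buffered saline before the lobe was frozen. The labels do not say whether each library came from a separate animal, so the p-values measure the spread between these libraries, which may in part be technical. No hour of collection and no corticosterone level are labelled.

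Glucocorticoids (corticosterone in the rat) bind the glucocorticoid receptor, Nr3c1, which waits in the cytoplasm in a complex with HSP90 and then enters the nucleus and binds DNA. It induces a recurring set of genes in many tissues, among them its own brake, Fkbp5. Enzymes within the target cell set how much active steroid reaches the receptor, and the mineralocorticoid receptor, Nr3c2, binds the same hormone with higher affinity. The neural lobe holds the terminals of the vasopressin and oxytocin neurons, glia called pituicytes, and a capillary bed that lies open to the blood and its steroids.

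Values are depth-normalized counts, that is, read counts divided by 1 size factor per library. Recovered totals ran from 28429133 to 58696254 reads per library. Markers of the labelled tissue were present in every library, with the pituicyte transcription factor Rax at 1351 to 2611 and the oxytocin gene Oxt at 2079 to 5895. The libraries also held neighbouring lobes. The melanotroph and corticotroph precursor gene Pomc took 5.65 to 10.2% of reads at 35 days and 10.1 to 14.3% at 125 days. The growth hormone gene Gh1, of the anterior lobe, took 2.68% of reads in 35-day replicate 3 and 0.00392 to 0.358% in the other 7 libraries. Because 35-day replicate 3 stood apart in this way, counts of calls are given with and without it, and so are named genes whose call changes without it.

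Of the 8 genes, only Mt1, a metallothionein gene, changed with age in limma: it fell, with a log2 change of -0.77 (SE 0.15, n = 4 per age, Benjamini-Hochberg adjusted p = 0.00703). The classical receptor targets Fkbp5 and Tsc22d3 did not pass the test, with 95% intervals of -0.04 to 0.38 and -0.33 to 0.14 on the log2 scale. Sgk1, Pdk4 and Hsd11b1 had lower means at 125 days without passing the test. The 1 call among 8 genes (12.5%) stands beside 17.7% called among the 17919 genes tested, 8.85% higher and 8.87% lower at 125 days, so the share called was no larger than the background. Without 35-day replicate 3, 3 of the 8 genes fell (Mt1, Sgk1 and Pdk4), beside 30.7% of all genes tested, and without 35-day replicate 4 it was 2 of 8 (Mt1 and Sgk1), beside 16.4%. The median log2 change of the 8 genes was -0.22, against 0.01 over all genes tested. A value below 0 was found for 6 of the 8, beside 8816 of the 17919 genes tested, and of those 6 only Mt1 was called. All 8 passed the filter on low values in both ages, with 158 reads or more in every library.

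**Figure D1:**
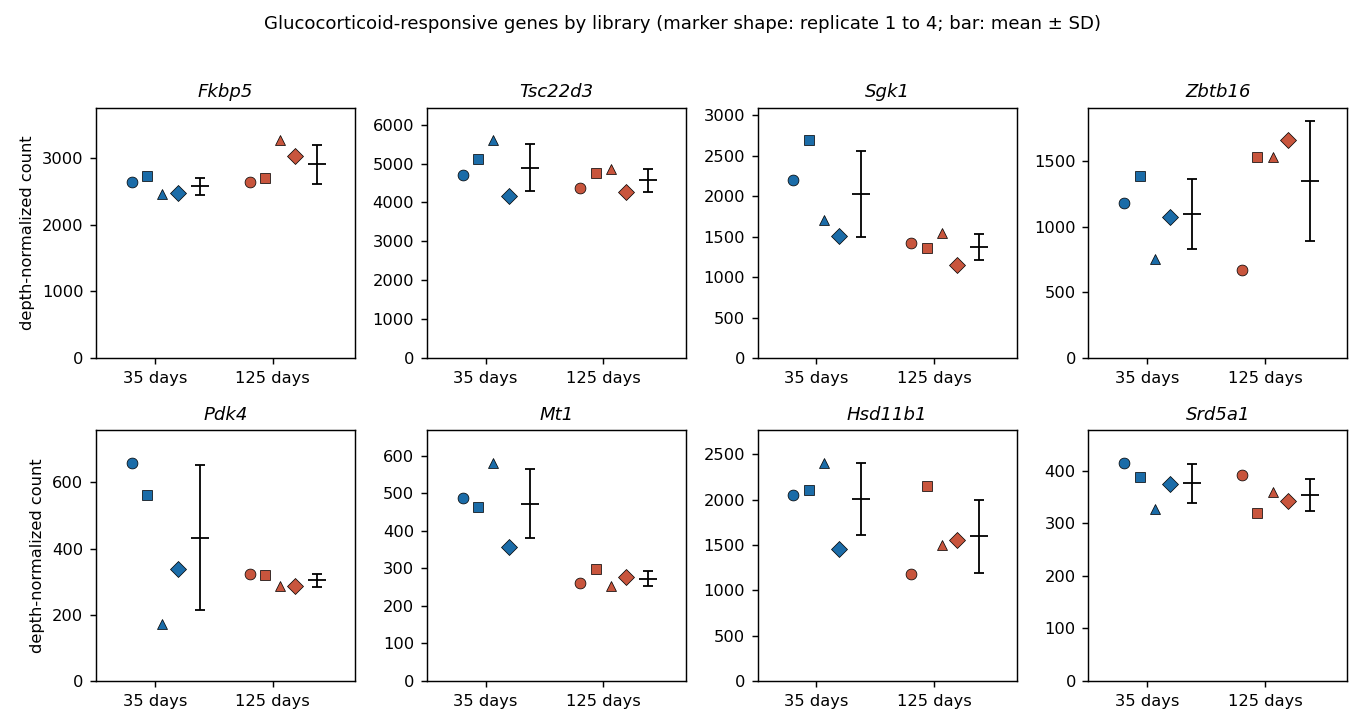
Depth-normalized count (linear axis from 0) of each of the 8 genes in the 4 libraries of 35 days (blue) and 125 days (red), with the marker shape giving the replicate number and the bar the mean ± SD. Mt1 is the panel in which the ages do not overlap, with 356 to 581 at 35 days and 253 to 299 at 125 days.

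Mt1 encodes a small cysteine-rich protein that binds zinc and copper, and it is induced by metals as well as by glucocorticoids. It is shown with its promoter because it is the member that changed and because the neighbouring metallothionein gene, Mt2A, can be set beside it. The windows run from 250 bases before to 50 bases after the annotated start, from RefSeq on build GRCr8, which is not the rn7 build of the files. Both lie on the minus strand, at chr19:10832926-10833225 for Mt1 and chr19:10838659-10838958 for Mt2A. Capitals mark each match to the core of the metal response element, searched as TGCACNC and TGCGCNC and, on the other strand, GNGTGCA and GNGCGCA.
Mt1: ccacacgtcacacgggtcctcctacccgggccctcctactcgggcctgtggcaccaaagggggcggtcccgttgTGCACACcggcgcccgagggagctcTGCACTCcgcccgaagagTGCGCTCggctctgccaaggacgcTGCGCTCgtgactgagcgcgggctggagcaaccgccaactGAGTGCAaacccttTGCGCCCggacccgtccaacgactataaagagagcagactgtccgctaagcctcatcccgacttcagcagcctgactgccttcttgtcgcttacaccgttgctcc
Mt2A: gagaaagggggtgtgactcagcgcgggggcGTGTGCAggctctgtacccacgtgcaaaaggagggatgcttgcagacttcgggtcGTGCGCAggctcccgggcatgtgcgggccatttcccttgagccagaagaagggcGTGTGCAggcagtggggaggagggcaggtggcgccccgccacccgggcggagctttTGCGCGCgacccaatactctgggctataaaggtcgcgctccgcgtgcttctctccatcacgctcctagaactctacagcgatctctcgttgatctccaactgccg

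The Mt1 window held 6 matches, between 176 and 55 bases before the start, and the Mt2A window held 4, between 220.0 and 55 bases before it. Among the 33469 promoter windows of the same length, 24.2% held at least 1 match, 0.439% held 4 or more and 0.0388% held 6 or more. A TATAAA run lay 32 bases before the start in Mt1 and 31 in Mt2A. Anywhere in the window and on either strand (TATAAA or TTTATA), 14.2% of all windows held such a run. The half-site of the glucocorticoid receptor, AGAACA or TGTTCT, was found in 20.7% of all windows and in none of the 10 windows listed for Mt1, Fkbp5, Tsc22d3, Sgk1, Pdk4 and Srd5a1. Such matches describe letters within these windows and do not show where any factor was bound in this tissue.

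Mt1 was at 488, 463, 581 and 356 in 35-day replicates 1 to 4, and at 261, 299, 253 and 278 in 125-day replicates 1 to 4. Every 35-day library lay above every 125-day library, as it did for 11.5% of all genes tested. The means were 472 ± 92.4 and 273 ± 20.2 (SD, n = 4), which is 42.2% lower at 125 days. The call was kept without any 1 library, at log2 changes from -0.90 to -0.66, and lost once the fit carried a covariate for the anterior lobe markers (-0.68, SE 0.21, adjusted p = 0.0561).

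Mt2A, the other widely expressed metallothionein gene, was at 1433, 1335, 1364 and 888 at 35 days and at 973, 814, 862 and 895 at 125 days. The ages overlapped through 35-day replicate 4, which was also the lowest 35-day library for Mt1. Its log2 change was -0.48 (SE 0.15), with adjusted p = 0.0532 in limma, 0.0379 in edgeR and 0.0128 in DESeq2, and 0.00380 in limma without 35-day replicate 4. The coding sequences of metallothionein genes are much alike, so how reads were shared between them is uncertain. Mt3, the brain metallothionein gene, had a log2 change of -0.14 (SE 0.21, adjusted p = 0.693), and Mtf1, encoding the factor that reads the metal response element, one of 0.33 (SE 0.17, adjusted p = 0.210).

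Of 6 metal-responsive genes tested, 1 rose and 0 fell (16.7%, beside 17.7% of all genes tested). Without 35-day replicate 3 the counts were 1 and 2, beside 30.7% of all genes tested. The gene that rose was Slc30a2, which encodes a zinc transporter of vesicles, at 17.6 to 27.2 at 35 days and 62.0 to 73.3 at 125 days. Its log2 change was 1.53 (SE 0.20, adjusted p = 7.19e-04), and the ages did not overlap.

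The genes whose profile over the 8 libraries lay closest to that of Mt1 were Pcp4 and Tnfaip8l1, among 12810 genes compared. After each gene was centred on its own mean, their root mean square differences from Mt1 were 0.0885 and 0.0902 on the log2 scale. Pcp4, a calmodulin-binding protein gene, went from 8160.4 ± 1876 to 4926 ± 259, and Tnfaip8l1 from 146 ± 25.5 to 82.5 ± 11.4 (SD, n = 4).

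The level of several cell type markers moved with age in the same libraries as Mt1. The 12 pituicyte markers summed to between 49467 and 64718 per library at 35 days and between 32004 and 48239 at 125 days, with 5 of 12 called lower. The 12 endothelial markers summed to 25316 to 35128 and then 15766 to 30774 (8 called lower), and the 9 fibroblast markers to 83529 to 111951 and then 32578 to 50336 (8 called lower). Of all genes tested, 8.87% were called lower. By the mean log2 level per library, the ages differed by -0.79 for the pituicyte list, -0.65 for the endothelial list, -1.18 for the fibroblast list and 0.46 for the intermediate lobe list. Each had p = 0.0286 in a two-sided exact permutation test, the smallest p that 4 libraries against 4 allow, and 0.0643 adjusted over the 9 lists. The lists were chosen with earlier results of these data known, so these p-values only describe how the ages separated. In the same exact test the pericyte and smooth muscle list differed by -0.75 (p = 0.0571) and the anterior lobe list by -2.50 (p = 0.114). Of the 9 pericyte and smooth muscle markers, 7 were called lower and 1 higher. Among the 12 anterior lobe markers 5 were called lower and 0 higher. The macrophage, cleft epithelium and axon terminal lists differed by -0.20, -0.08 and 0.18 (exact permutation p = 0.314, 0.571 and 0.114). Their markers called lower numbered 3 of 10, 0 of 6 and 1 of 8, and those called higher 1, 0 and 2. No marker in any of the 9 lists was at 0 in all libraries. In these bulk samples fewer cells of a type and less RNA per cell cannot be told apart, and the part of these markers in the fall of Mt1 was not tested.

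**Figure D2:**
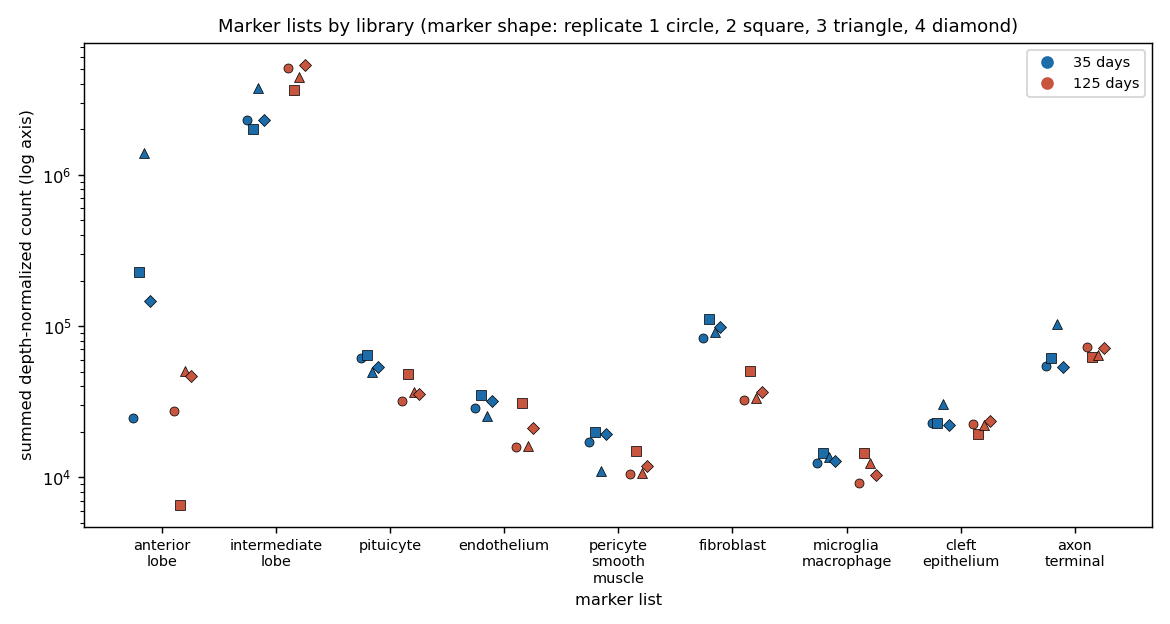
Summed depth-normalized count (log axis) of 9 marker lists in each library, blue for 35 days and red for 125 days, with the marker shape giving the replicate number. The anterior lobe list of 35-day replicate 3 (1395703) lies above all other libraries (6609 to 228794), and the fibroblast and pituicyte lists do not overlap between the ages.

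Among the enzymes that set local steroid, Hsd11b1 regenerates active corticosterone from its inert 11-keto form. It was at 2052, 2109, 2403 and 1450.0 at 35 days and at 1177, 2146, 1502 and 1558 at 125 days. The ages overlapped: 125-day replicate 2 was higher than 35-day replicates 1, 2 and 4, and 35-day replicate 4 was lower than all 125-day libraries but replicate 1. The means were 2004 ± 399.7 and 1596 ± 404 (log2 change -0.34, SE 0.20, adjusted p = 0.275), and the log2 change was -0.20 without 125-day replicate 1. The opposing enzyme gene, Hsd11b2, which inactivates corticosterone, averaged 7.64 ± 3.03 at 35 days and 12.2 ± 4.68 at 125 days (SD, n = 4). With 5 to 17 reads per library its change could not be resolved (log2 change 0.59, 95% interval -0.26 to 1.45, adjusted p = 0.328).

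Srd5a1, the 5-alpha-reductase that reduces testosterone, progesterone and corticosterone, was among the steadiest of the 8 genes. It was at 415, 389, 327 and 376 at 35 days and at 392, 321, 361 and 342 at 125 days. The ages overlapped almost completely, at means of 377 ± 36.9 and 354 ± 30.3. The log2 change was -0.09 (SE 0.12, 95% interval -0.35 to 0.17, adjusted p = 0.653), and -0.15 (SE 0.10, adjusted p = 0.271) without 35-day replicate 3. Without 35-day replicate 1 or 125-day replicate 2 it was -0.04, and without 125-day replicate 1 it was -0.14. Of the steroid conversion and transport genes outside the 8, Hsd11b2 included, 0 of 7 tested passed in limma, edgeR or DESeq2. Those tests called 17.7%, 17.7% and 23.4% of all genes. Leaving out 35-day replicate 3 in limma also gave 0 of 7, beside 30.7% of all genes tested. Akr1c14 and Abcb1a, 2 of the 7, had an unadjusted limma p below 0.05. H6pd, which feeds Hsd11b1 with reduced cofactor, had a log2 change of 0.14 (SE 0.14, adjusted p = 0.550). Akr1c14, which acts after 5-alpha reduction in the rat, had one of 0.35 (SE 0.14, adjusted p = 0.107). Srd5a2, Hsd17b6, Serpina6 and Cyp11a1 did not pass the filter, and Serpina6, the corticosteroid-binding globulin gene, was at 0 in all 8 libraries.

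Of the receptor genes, Nr3c2 rose and Nr3c1 did not pass the test. Nr3c1 was at 3603, 3693, 2833 and 3390 at 35 days and at 2657, 3368, 3138 and 2843 at 125 days, with overlapping ages (log2 change -0.17, SE 0.11, 95% interval -0.42 to 0.08, adjusted p = 0.344). Nr3c2 was at 901, 931, 825 and 1064 at 35 days and at 1820.3, 1305, 1717 and 1545 at 125 days. Every 125-day library lay above every 35-day library, as for 13.4% of all genes tested, and Nr3c2 rose by 0.77 (SE 0.12, adjusted p = 0.00255). The call was kept under all 21 alternatives, at adjusted p up to 0.0149. Without 35-day replicate 3 Nr3c1 fell by 0.25 (SE 0.08, adjusted p = 0.0480). The difference between the 2 receptors' changes was not tested. Of 9 chaperone genes of the receptor complex and 11 coregulator genes, 0 passed in limma or edgeR, with log2 changes from -0.42 to 0.28. Each of these tests called 17.7% of all genes. In each list 1 gene had an unadjusted limma p below 0.05, namely the HSP90 gene Hsp90aa1, which passed in DESeq2, and Hmgb1. Without 35-day replicate 3 the chaperone genes Dnajb1 and Stip1 rose and 0 of the 11 coregulator genes passed, in a fit that called 30.7% of all genes. In the same libraries the intermediate lobe markers summed to 2010083 to 3760228 at 35 days and 3621018 to 5345090 at 125 days. Of these 6 markers 2 were called higher, beside 8.85% of all genes tested. The part of the intermediate lobe markers in the Nr3c2 rise was not tested.

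Fkbp5 encodes a co-chaperone that lowers the receptor's affinity for hormone, and it is widely used as a readout of receptor activity. It was at 2640.4, 2725, 2457 and 2472 at 35 days and at 2643, 2694, 3264 and 3024 at 125 days. Replicates 3 and 4 of 125 days were above all 35-day libraries, and replicates 1 and 2 were within the 35-day range. The means were 2574 ± 131 and 2906 ± 292 (log2 change 0.17, SE 0.09, adjusted p = 0.250), and the log2 change was 0.11 without 125-day replicate 3. Its residual SD over libraries was the lowest of the 8 genes, at the 13.9 percentile of all genes tested.

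Tsc22d3 encodes GILZ, a leucine zipper protein that mediates anti-inflammatory effects of glucocorticoids. It was at 4699, 5107, 5598 and 4178 at 35 days and at 4375, 4762, 4860.4 and 4256 at 125 days, so the 125-day libraries lay inside the 35-day range. The means were 4895 ± 603 and 4563 ± 293 (log2 change -0.10, SE 0.11, adjusted p = 0.583). The log2 change was -0.03 (SE 0.08) without 35-day replicate 3 and -0.17 (SE 0.10) without 35-day replicate 4, at adjusted p = 0.820 and 0.286.

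Sgk1 encodes a kinase that raises the activity of sodium channels and other transporters. It was at 2205, 2692, 1709 and 1508 at 35 days and at 1428, 1363, 1542 and 1151 at 125 days. The ages overlapped only through 35-day replicate 4 and 125-day replicate 3. The means were 2028 ± 531 and 1371 ± 164 (log2 change -0.54, SE 0.18), and the limma test missed the threshold (adjusted p = 0.0626). It was passed in edgeR (adjusted p = 0.0493), which called 17.7% of all genes, in DESeq2 (0.0179), which called 23.4%, under 2 other scalings, with library weights, with the replicate number as a block (0.0471), and in limma without 35-day replicate 3 (log2 change -0.61, SE 0.17, adjusted p = 0.0259) or 4 (-0.67, SE 0.16, adjusted p = 0.0271). Without 35-day replicate 2, the highest library, the log2 change was -0.39 (SE 0.15, adjusted p = 0.140).

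Zbtb16 encodes PLZF, a zinc finger transcription factor. A long noncoding RNA gene overlaps it in the RefSeq annotation of GRCr8, and without a stated strand setting their reads cannot be told apart. It was at 1176, 1385, 754 and 1070.2 at 35 days and at 668, 1533, 1529 and 1657 at 125 days. Replicate 1 of 125 days was the lowest of all 8 libraries, while the other 125-day libraries were above all of 35 days. The means were 1096 ± 263 and 1347 ± 456 (log2 change 0.25, SE 0.29, adjusted p = 0.606). Without 125-day replicate 1 the log2 change was 0.55 (SE 0.19, adjusted p = 0.0977), and without 35-day replicate 3 it was 0.08 (SE 0.28, adjusted p = 0.854).

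Pdk4 encodes a kinase that switches off pyruvate dehydrogenase and so spares glucose. It was at 659, 563, 172 and 339 at 35 days and at 323, 319, 287 and 287 at 125 days. The highest 35-day library was 3.83 times the lowest, against 1.12 times at 125 days, and 35-day replicate 3 lay below all 125-day libraries. The means were 433 ± 219.6 and 304 ± 19.4 (log2 change -0.34, SE 0.35, adjusted p = 0.555). Without 35-day replicate 3, the library with the highest anterior lobe level, Pdk4 fell by 0.72 (SE 0.19, adjusted p = 0.0202), and with a covariate for that level by 1.13 (SE 0.34, adjusted p = 0.0497). Without 35-day replicate 1 or 2 the log2 change was -0.08 (SE 0.33, adjusted p = 0.903) and -0.15 (SE 0.37, adjusted p = 0.823). Of 10 partner genes of pyruvate dehydrogenase control, 1 rose and 0 fell, beside 17.7% of all genes tested. Leaving out 35-day replicate 3 gave 2 and 1, beside 30.7% of all genes tested. In neither fit was the share called larger than the background. With all libraries, the gene that rose was Pdk2, another kinase of the complex. It rose by 0.38 (SE 0.08, adjusted p = 0.0120), from 1605 ± 93.7 to 2090 ± 104. The Pdk2 call was lost without 125-day replicate 4 (adjusted p = 0.0517) and with the anterior lobe covariate (0.0763).

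**Figure D3:**
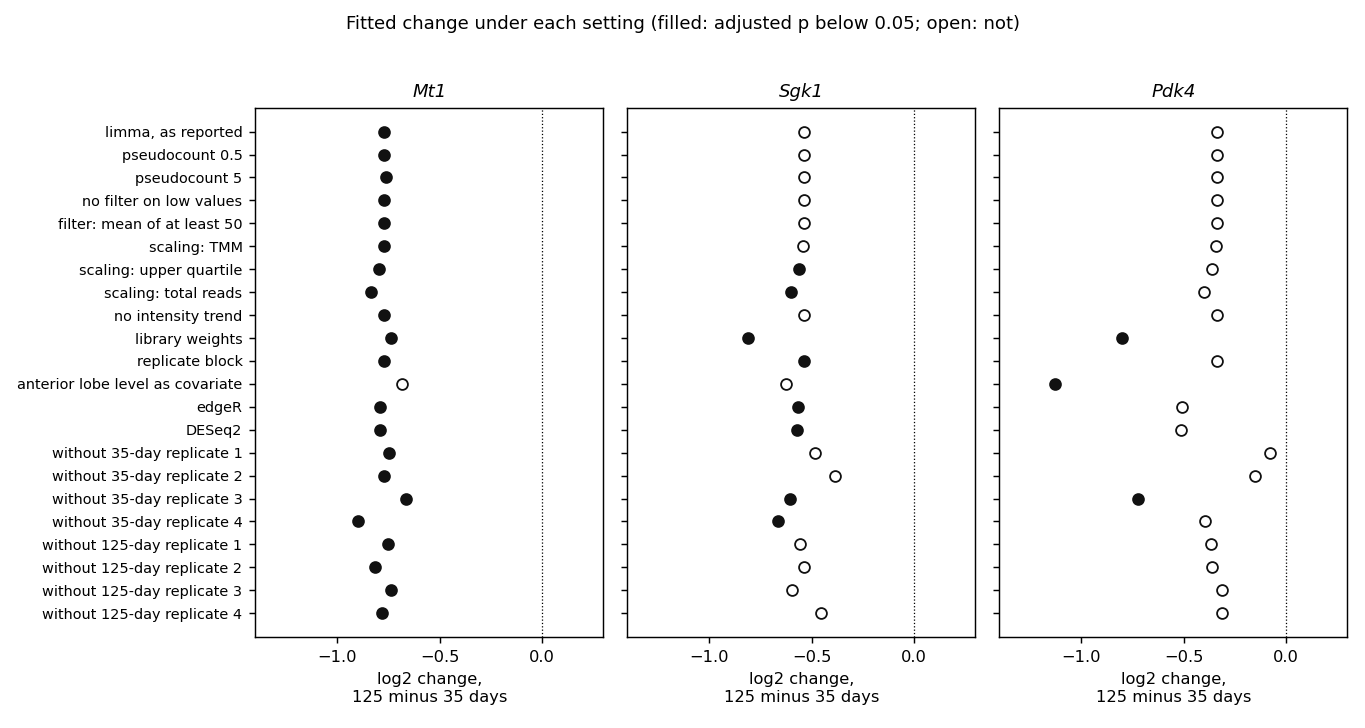
Log2 change (125 minus 35 days) of Mt1, Sgk1 and Pdk4 as reported and under each of 21 alternatives, with filled points for adjusted p below 0.05 and open points otherwise. Mt1 is filled in all rows but the anterior lobe covariate, Sgk1 is filled in 8 alternatives, and Pdk4 moves between -1.13 and -0.08.

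Each library was compared with the mean log2 level of its age, which includes that library. At 35 days replicates 1 and 2 were above that mean for 7 of the 8 genes each, and replicate 4 for 1. Some of these deviations were close to 0, such as -0.0007 for Zbtb16 and 0.0027 for Srd5a1 in replicate 4. The share of all genes above the mean in each library was not computed. No shared state of the 8 genes is therefore read from these counts. Replicate 3 was split, with the highest value for Tsc22d3, Mt1 and Hsd11b1 and the lowest for Fkbp5, Zbtb16, Pdk4 and Srd5a1. The remaining 4 genes, Tsc22d3, Sgk1, Mt1 and Hsd11b1, had their lowest 35-day value in replicate 4, which was also the deepest library. At 125 days the number above the mean log2 level ran from 3 to 6 of 8. The spread was unequal, too. Residual SDs of Pdk4 and Zbtb16 were at the 94.0 and 89.4 percentile of all genes tested, and those of Fkbp5, Srd5a1 and Tsc22d3 at the 13.9, 20.4 and 23.1 percentile.

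**Figure D4:**
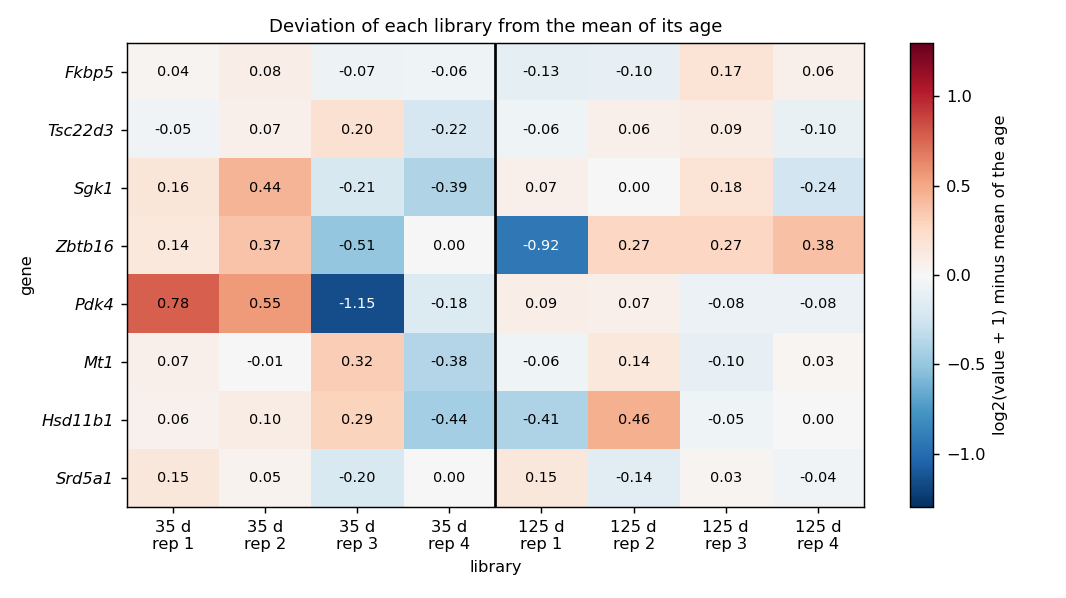
Deviation of log2(value + 1) from the mean of its age for the 8 genes (rows) in the 8 libraries (columns), red above and blue below the mean. The deepest blue cells are Pdk4 in 35-day replicate 3 and Zbtb16 in 125-day replicate 1.

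Among 37 further genes known to respond to glucocorticoids in other tissues, 2 rose and 3 fell (13.5%, beside 17.7% of all genes tested), with a median log2 change of 0.04. Without 35-day replicate 3 the counts were 7 and 7, beside 30.7% of all genes tested. Dusp1, a phosphatase that switches off MAP kinases and is also an immediate early gene, was at 1107, 2938, 1465 and 1291 at 35 days and at 9807, 3902, 8625 and 11541 at 125 days. It rose by 2.32 (SE 0.37, adjusted p = 0.00232), the ages did not overlap, and 125-day replicate 2 was the lowest of its age. Errfi1, a feedback inhibitor of the EGF receptor, rose from 2022 ± 305 to 2993 ± 385 (log2 change 0.57, SE 0.13, adjusted p = 0.0152). The Errfi1 call was lost without 125-day replicate 4 (adjusted p = 0.0540) and with the anterior lobe covariate (0.0941).

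The genes that fell were Cdkn1a, Anxa1 and Angptl4. Cdkn1a, the cell cycle inhibitor p21, went from 298 ± 48.0 to 152 ± 46.7 (log2 change -1.01, SE 0.23, adjusted p = 0.0133). Anxa1, an anti-inflammatory annexin, was at 2114, 1868, 2933 and 1734 at 35 days and at 1336, 1165, 1422 and 1302 at 125 days. Its log2 change was -0.70 (SE 0.16, adjusted p = 0.0127), and -0.44 (SE 0.18, adjusted p = 0.139) with the anterior lobe covariate. With that covariate the log2 change of Cdkn1a was -1.04 with a larger error (SE 0.32, adjusted p = 0.0550). Angptl4, an inhibitor of lipoprotein lipase, went from 264 ± 41.6 to 164 ± 48.5 (log2 change -0.71, SE 0.21, adjusted p = 0.0457). The ages overlapped for Angptl4, and its call was lost under 9 of the 21 alternatives. It was lost in edgeR (adjusted p = 0.0556), and in limma without the filter on low values (0.05645) or the intensity trend (0.05846). In limma it was also lost without any 1 library but replicate 3 of 35 days and replicate 2 of 125 days (0.0698 to 0.129).

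The remaining 32 targets did not pass. They included Klf9 (log2 change -0.08, SE 0.12) and Per1 (0.63, SE 0.27, adjusted p = 0.141), transcription regulators with well-known glucocorticoid response elements, and Nfkbia (-0.13, SE 0.16), the inhibitor of NF-kappaB. Irs2, an insulin receptor substrate, had separate ages without passing (log2 change 0.66, SE 0.21, adjusted p = 0.0536). It passed in limma without 35-day replicate 3 (0.44, SE 0.11, adjusted p = 0.0134) or 2 (0.81, SE 0.20, adjusted p = 0.0337), with upper quartile scaling, library weights or the replicate block, and in DESeq2 (adjusted p = 0.0235). With the anterior lobe covariate its log2 change was 0.30 (SE 0.24, adjusted p = 0.439). Il1r2, Tat and Pck1 were too low to be tested.

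Of 5 genes of the hypothalamus, pituitary and adrenal axis tested, 2 rose and 0 fell (40.0%, beside 17.7% of all genes tested), and the same 2 rose without 35-day replicate 3, beside 30.7%. Crhr1, the main receptor for corticotropin-releasing hormone in the pituitary, was at 264, 271, 524 and 366 at 35 days and at 1420.1, 864, 1262 and 1307 at 125 days. It rose by 1.80 (SE 0.23, adjusted p = 7.17e-04), with no overlap of the ages. Crhr2, a related receptor, was at 8.52 to 13.1 and at 22.7 to 47.9 (log2 change 1.48, SE 0.30, adjusted p = 0.00790). In limma both calls were kept without any 1 library and with the anterior lobe covariate. Pomc, which melanotrophs of the intermediate lobe express with Crhr1, had a log2 change of 0.87 (SE 0.57, adjusted p = 0.333 in limma, 0.0478 in edgeR and 0.00128 in DESeq2), and the part of intermediate lobe tissue in the Crhr1 rise was not tested. Crhbp, whose product binds corticotropin-releasing hormone, was at 12.2, 48.6, 89.4 and 32.7 at 35 days and at 10.2, 19.5, 3.78 and 20.5 at 125 days, with overlapping ages. Its log2 change of -1.60 did not pass in limma (SE 0.63, adjusted p = 0.111) or edgeR (0.0747), and passed in DESeq2 (0.0198), with library weights (0.0191) and in limma without 35-day replicate 1 (-2.10, SE 0.57, adjusted p = 0.0413). With the anterior lobe covariate it was -0.61 (SE 0.77, adjusted p = 0.640).

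**Figure D5:**
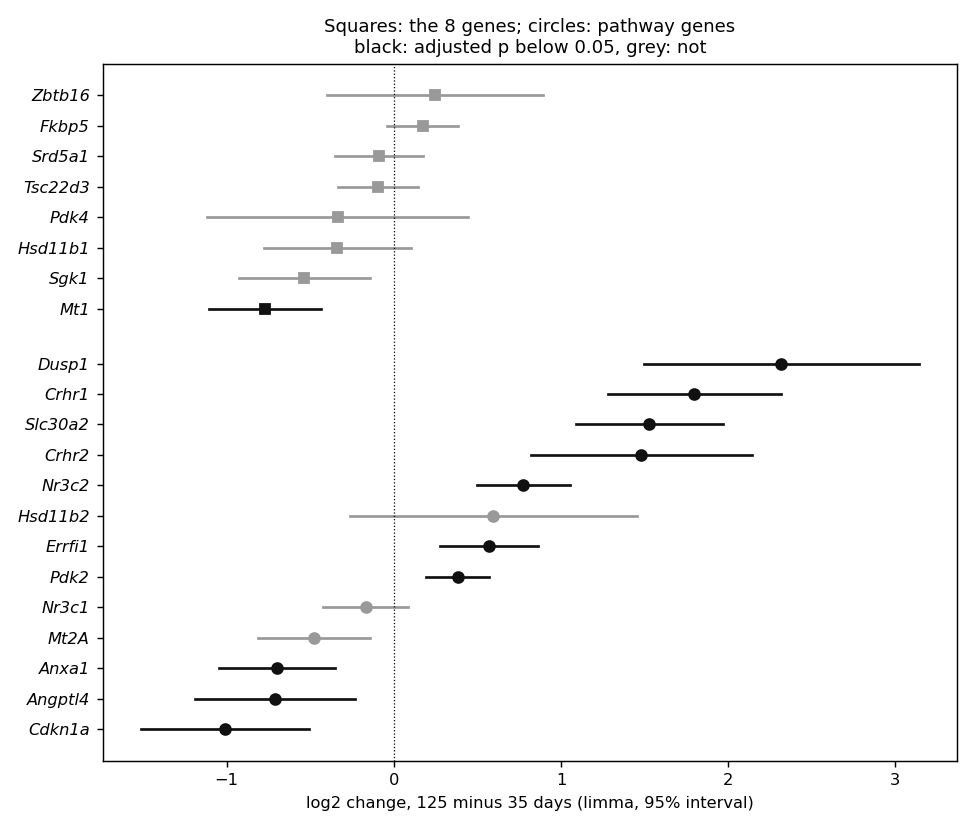
Log2 change (125 minus 35 days) with its 95% interval from limma for the 8 genes (squares) and the named pathway genes (circles), black where the adjusted p is below 0.05 and grey where not. Mt1 is the only black square, and Dusp1 (2.32), Crhr1 (1.80), Slc30a2 (1.53) and Crhr2 (1.48) lie farthest to the right.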

How the data were processed

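Poly(A)-selected RNA sequencing libraries of the rat neural lobe were compared between 2 ages, 4 libraries each. The submitters' processing notes name build rn7 and, without roles, DESeq2 1.34.0, Subread 2.0.1 with featureCounts, SAMtools 1.13, HISAT2 2.2.1 and Trimmomatic 0.39. Neither the annotation nor the strand setting was stated in the labels. The deposited values are a depth-normalized signal. The values themselves show that the authors scaled each library's read counts by a single factor: 100.0% of nonzero values were whole multiples of the smallest in their library, within 0.001 reads. Whole reads were thus recovered for edgeR, which called 3170 genes on them.

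The test was limma 3.58.1 (R 4.3.3, intensity trend, two-sided, age as the only term) on log2(value + 1). It covered 17919 genes that reached 10 in 4 or more libraries. A gene was called where its adjusted p (Benjamini-Hochberg, over all genes tested) was below 0.05. Alternatives changed the pseudocount (0.5, 5), the filter (none, or a mean of 50), the scaling (TMM, upper quartile, total reads), the trend and the library weights. Others used edgeR 4.0.16, DESeq2 1.42.0, the replicate number as a block or a covariate for anterior lobe markers, or left out each library with the same genes tested. The fit was also run on simulated counts with the same spread between libraries for every gene, unlike these data, and no call rests on that run.

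The 8 genes, the pathway lists and the marker lists were chosen with earlier results of these data known. From the pathway lists, every called gene is named, with Nr3c1, Nr3c2, Mt2A and Hsd11b2 whether called or not, and for each called member the 2 genes of most similar profile with a mean of at least 100. Other pathway genes are named as examples or to complete a short count, chosen after their values were seen. Libraries of an age differed by 15.7 to 277 times read sampling, so none looked like a copy. Figures were drawn with matplotlib 3.10.9.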

Additional observations from a re-analysis of the deposited data

Results flagged for a closer look

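Zbtb16 in 125-day replicate 1 stood apart from the other libraries of its age. At 668 against 1529 to 1657, its gap to the nearest library was 0.871 of the range of that age, above Dixon's critical value for 4 libraries. Among 42 groups of 4 libraries examined for 21 genes this was the only flag, and chance flags about 1 in 20 groups.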

How the results depend on the processing

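All genes called (3174; 1585 higher, 1589 lower) numbered 7892 with library weights and 1894 to 5495 without 1 library: 5495 without 35-day replicate 3, and 1978, 1948 and 1894 without 125-day replicates 1, 3 and 4. Scaling by total reads gave 1161 higher and 1978 lower. Of the 8 genes, 2 were called with upper quartile scaling, total-read scaling, the replicate block, edgeR and DESeq2 (Mt1 and Sgk1 in each), 4 with library weights, and 1 to 3 without 1 library. With the anterior lobe covariate Pdk4 was called and Mt1 was not. Of 87 pathway genes, 10 were called (11.5%, beside 17.7% of all genes tested). Their count was 39 with library weights, 17 in DESeq2 (beside 23.4%) and 7 to 26 without 1 library (26 without 35-day replicate 3, beside 30.7%). With the anterior lobe covariate the log2 change of Tsc22d3 was 0.0153 and that of Zbtb16 -0.0599, opposite in sign to the reported values, neither past the threshold. The cause of these differences was not tested. Same-numbered libraries did not deviate together (correlations 0.04, 0.17, -0.00 and -0.12 for numbers 1 to 4), so the numbers were not taken to pair them. With the replicate block 2718 genes, 2 of the 8 genes and 11 pathway genes were called. Read depth limited Hsd11b2, at 5 to 17 reads per library.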
